A study of Mus musculus with 25 samples.

Results

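Respiratory complex I is the NADH dehydrogenase of the inner mitochondrial membrane. The genes described here are its nuclear-encoded subunits and the assembly factors that help to build it. They were chosen as the gene symbols of the Nduf families a, b, c, s, v, ab and af followed by a number, with a mean normalized count of at least 10 in all 4 comparisons. Of 24421 gene symbols in each of the authors' deposited tables, 44 match that pattern and 43 pass the minimum. These are 36 subunits and 7 assembly factors (Ndufaf1 to Ndufaf7). The symbol left out, Ndufs5, a subunit of the membrane arm, is listed at 0 in all 4 of the authors' deposited tables. The lowest member in any of the authors' deposited tables, Ndufaf6 in RD-weaned males, has a mean normalized count of 231.

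Poly(A) RNA was sequenced with a stranded kit from the hypothalamus, which regulates appetite and energy balance, of wild-type C57BL/6J mice aged 3 months. Dams were fed regular chow (RD) or a high-sucrose hypercaloric diet with 52% fat (HCD), beginning 1 month before mating and continuing until their pups were weaned. Offspring of both sexes were weaned onto HCD or RD. The 4 comparisons set offspring of HCD dams against offspring of RD dams within a sex and a weaning diet. They are HCD-HCD against RD-HCD females, HCD-HCD against RD-HCD males, HCD-RD against RD-RD females and HCD-RD against RD-RD males, where the first name is the dam's diet and the second the offspring's. The labels list 25 samples, 3 in each of 7 groups and 4 in the group of RD-RD males. They do not say which came from the same litter, so p-values reflect the spread among the samples sequenced, which may be technical.

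Values of single samples are not given here, because the names of the library columns match no label. The results rest on the authors' own comparisons. These give a mean normalized count over both groups, a log2 fold change with its standard error (SE), and a p-value with its adjusted form. The numerator of the fold change is not stated for any comparison, and a positive value was taken to mean higher in offspring of HCD dams. For HCD-weaned offspring the labels name the RD-dam groups as controls, which favours this reading but does not settle it. For RD-weaned offspring only the group order supports this reading, and if it is wrong for a table, all of its signs turn together. In bulk tissue, fewer cells of a type and less RNA per cell cannot be told apart.

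In complex I, electrons enter at the N module, which oxidizes NADH, pass through the Q module, which hands them to ubiquinone, and drive proton pumping in the membrane arm. The core subunits carry the flavin, the iron-sulphur clusters and the proton channels, and the mitochondrial genome encodes the core of the membrane arm. The accessory subunits surround the core and stabilize it, and the assembly factors bind intermediates and leave the finished enzyme. Neurons rely on oxidative phosphorylation for much of their ATP. The roles given below are those known for the mammalian complex, mostly from bovine and human work. Ndufa4, named as a subunit of complex I, is now counted with complex IV (cytochrome c oxidase) and was kept among the 36 by its name.

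The means of 13 hypothalamic marker genes, none of them at 0, summed to between 163 and 465 CPM (counts scaled to a common library total) per the authors' deposited tables. Those of 10 neuronal markers, none at 0, summed to between 5855 and 6683 CPM. Mean normalized counts summed over all genes to 15402649 in RD-weaned males and to at least 22739667 in the other 3 comparisons, per the authors' deposited tables. For RD-weaned males the labels list 7 samples and the accompanying count table has 6 library columns, so 1 sample may be absent from that comparison. The median SE of the subunits was 0.25 in HCD-weaned females, 0.29 in HCD-weaned males, 0.25 in RD-weaned females and 0.45 in RD-weaned males, on the log2 scale of the authors' deposited tables.

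Subunits were the more abundant class. Divided by transcript length, the level of a subunit had a median of 258 CPM per kb (range 7.32 to 1199 over 36 genes). The assembly factors had a median of 28.4 CPM per kb (9.03 to 84.9 over 7 genes), each gene taken as its median over the 4 means of the authors' deposited tables. The highest levels were those of Ndufb8, in the distal membrane arm, at 1034 to 1324 CPM per kb, and of Ndufa4 at 995 to 1297 CPM per kb. Ndufb9, also in the distal arm, followed at 776 to 1028 CPM per kb. Ndufs7, a core subunit described below, ranked 23rd of 43, at 170 to 276 CPM per kb. Ndufaf5, which hydroxylates an arginine of Ndufs7, was the most abundant assembly factor, at 81.4 to 93.3 CPM per kb. Ndufaf4, which binds the Q module during assembly, had the lowest level of the factors per kb of transcript, at 8.21 to 9.66 CPM per kb. The lowest level of all belonged to Ndufab1, the mitochondrial acyl carrier protein, at 6.82 to 8.86 CPM per kb. That value was divided by a principal transcript of 3479 bases, that of Ndufaf4 by one of 3632 bases and that of Ndufb2 by one of 4371 bases. All of these are understated if shorter transcripts are the ones used. Many neighbours in this order had ranges that overlap across the 4 comparisons, and no spread over single samples can be given.

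**Figure D1:**
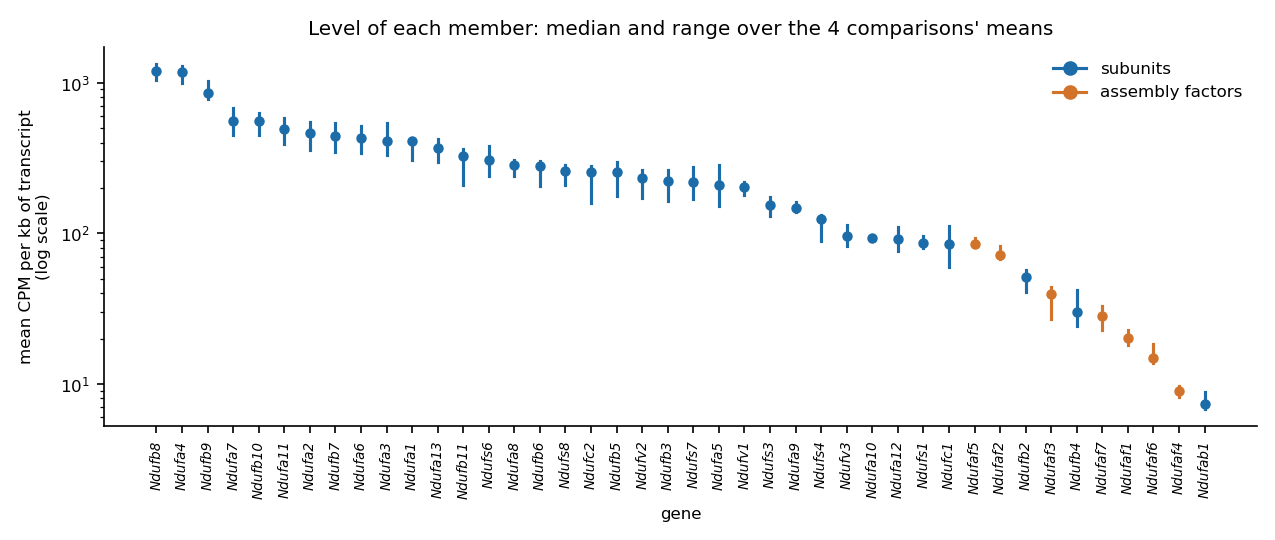
Level of 42 of the 43 genes in CPM per kb of transcript on a log scale, highest first. Points are medians and bars the range over the mean levels of the 4 comparisons, with subunits in blue and assembly factors in orange. All 7 assembly factors lie at or below 93.3 CPM per kb.

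In females weaned onto HCD, 8 of 36 complex I subunits rose in offspring of HCD dams at an adjusted p under 0.05 and none fell, per the authors' deposited table. None of the 7 assembly factors passed, and so few genes allow no reading of that count. Their median SE was 0.31, against 0.25 for subunits. Over all genes of that table, 1.52% passed in either direction and 0.984% were higher. The median log2 fold change was 0.62 for subunits, with 35 of 36 positive, and 0.35 for assembly factors, with 6 of 7 positive. All 15043 genes tested had a median of 0.04, with 54.4% positive, per the authors' deposited table. At an unadjusted p under 0.05 there were 24 of 36 subunits and 1 of 7 assembly factors, all higher, beside 13.3% of all genes tested.

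The largest Wald statistic among the members belonged to Ndufs7, the Q module core subunit that carries the last iron-sulphur cluster before ubiquinone. Its gene (ENSMUSG00000020153) lies at chr10:80249121-80256794 on the plus strand of GRCm38, with 9 exons in the principal transcript. It rose 2.39-fold in offspring of HCD dams, a log2 fold change of 1.26 ± 0.21 (SE; 95% interval 0.85 to 1.67) with an adjusted p of 4.05e-06, per the authors' deposited table. It ranked 7th of the 15043 genes by Wald statistic. The 6 other core subunits did not pass, and the interval of Ndufs7 lay above all of their point estimates. Ndufs8, which holds a pair of iron-sulphur clusters beside Ndufs7, had a log2 fold change of 0.73 ± 0.23 (adjusted p = 0.0752), per the authors' deposited table. Ndufv1, the flavin-binding subunit that receives electrons from NADH, had 0.60 ± 0.19 (adjusted p = 0.0712), per the authors' deposited table. Ndufs3, of the Q module, had 0.73 ± 0.25 (adjusted p = 0.103), per the authors' deposited table. Ndufv2 and Ndufs1, which carry iron-sulphur clusters of the N module, had 0.45 ± 0.30 (adjusted p = 0.576) and 0.23 ± 0.20 (adjusted p = 0.718), per the authors' deposited table.

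The other 7 subunits that rose are accessory ones and came from every module. In the N module, Ndufa2, which has a thioredoxin-like fold, rose by a log2 fold change of 1.09 ± 0.29 (adjusted p = 0.0227), per the authors' deposited table. In the Q module, Ndufa5, on the hydrophilic arm, rose by 0.90 ± 0.25 on the log2 scale (adjusted p = 0.0295), per the authors' deposited table. Of the proximal membrane arm, Ndufc2 rose by a log2 fold change of 0.99 ± 0.26 (adjusted p = 0.0227), per the authors' deposited table. Ndufa13, also known as GRIM-19, rose by 0.84 ± 0.24 on the log2 scale (adjusted p = 0.0442), and the X-linked Ndufa1 by 0.79 ± 0.22 (adjusted p = 0.0307), per the authors' deposited table. In the distal membrane arm, Ndufb10 rose by 0.95 ± 0.23 (adjusted p = 0.0101) and Ndufb3 by 0.91 ± 0.22 (adjusted p = 0.00813) on the log2 scale, per the authors' deposited table. The 8 subunits that rose did so by 1.72-fold to 2.39-fold.

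By module, the median log2 fold change in HCD-weaned females was 0.53 for the 8 N module subunits, 0.69 for the 8 of the Q module, 0.63 for the 8 of the proximal arm and 0.54 for the 11 of the distal arm. The lowest members by Wald statistic were Ndufb4 of the distal arm at -0.08 ± 0.40, the assembly factor Ndufaf7 at -0.05 ± 0.28 and Ndufa10, a subunit with a kinase-like fold, at 0.01 ± 0.18, per the authors' deposited table. Ndufab1 had a log2 fold change of 1.13 ± 0.41, second in size to Ndufs7, and did not pass (adjusted p = 0.143), per the authors' deposited table. Ndufa4 had a log2 fold change of 0.41 ± 0.27 (adjusted p = 0.56), per the authors' deposited table.

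Among the assembly factors in HCD-weaned females, Ndufaf3, which acts with Ndufaf4 on the early Q module, had the highest log2 fold change, 0.75 ± 0.29 (unadjusted p = 0.00962, adjusted p = 0.175), per the authors' deposited table. Ndufaf6, an early factor, had 0.46 ± 0.43, Ndufaf1, part of the complex that assembles the membrane arm, 0.44 ± 0.31, and Ndufaf4 0.35 ± 0.33, per the authors' deposited table. Ndufaf2, a relative of the subunit Ndufa12 that binds a late intermediate, had 0.28 ± 0.34, Ndufaf5 0.21 ± 0.27 and Ndufaf7, a methyltransferase, -0.05 ± 0.28, per the authors' deposited table. Each of these 6 values lies within 1.5 SE of 0. A further factor of the family, Ndufaf8, is listed under its older symbol 1810043H04Rik, which the pattern does not match. Its log2 fold change in HCD-weaned females, 1.03 ± 0.32 (adjusted p = 0.0623), was above those of Ndufaf1 to Ndufaf7, per the authors' deposited table.

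The count of 8 depends on how the statistics are scaled: 1 subunit, Ndufs7, passed with the Wald statistics divided by their robust spread and 1, again Ndufs7, with the trend against transcript length removed. Over all genes of that table these settings called 56 with the robust spread and 64 with the length trend removed, against 229 as deposited. Of these 8 subunits, antisense genes overlap 30.0% of the exonic bases of Ndufa13 (Tssk6) and 11.5% of those of Ndufa2 (Tmco6). Among the members not called, the overlap is 65.6% for the assembly factor Ndufaf2 (B230220B15Rik) and 39.0% for Ndufb6 (Smim27). Whether counting used the strand is not stated. Cell type markers were read in the same table, where 1.52% of all genes tested were called and 13.3% had an unadjusted p under 0.05. Of 8 microglia markers 6 were positive (median 0.34, 0 called, 1 at an unadjusted p under 0.05). Of 8 oligodendrocyte markers 4 were positive (median 0.04, 0 called, 1 at an unadjusted p under 0.05). Of 8 astrocyte markers 6 were negative (median -0.36) and 1 fell, the water channel Aqp4, at -1.25 ± 0.33 (adjusted p = 0.0229), per the authors' deposited table. Of 7 endothelial and mural markers 5 were negative (median -0.28) and 1 fell, the pericyte gene Rgs5, at -1.57 ± 0.41 (adjusted p = 0.0219), per the authors' deposited table. The highest of these 7 was Cldn5 at 0.78, and of the 2 at an unadjusted p under 0.05, 1 was positive. Of 10 neuronal markers 6 were positive (median 0.13) and 1 rose, the neuronal tubulin Tubb3, at 0.83 ± 0.18 (adjusted p = 0.00257), per the authors' deposited table. The lowest of these 10 was Map2 at -0.64, and of the 5 at an unadjusted p under 0.05, 3 were positive. Of 10 telencephalic markers 9 were positive and 0 were called (median 0.36, 0 at an unadjusted p under 0.05), per the authors' deposited table. None of these markers was at 0, and their part in the subunits' values was not tested.

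**Figure D2:**
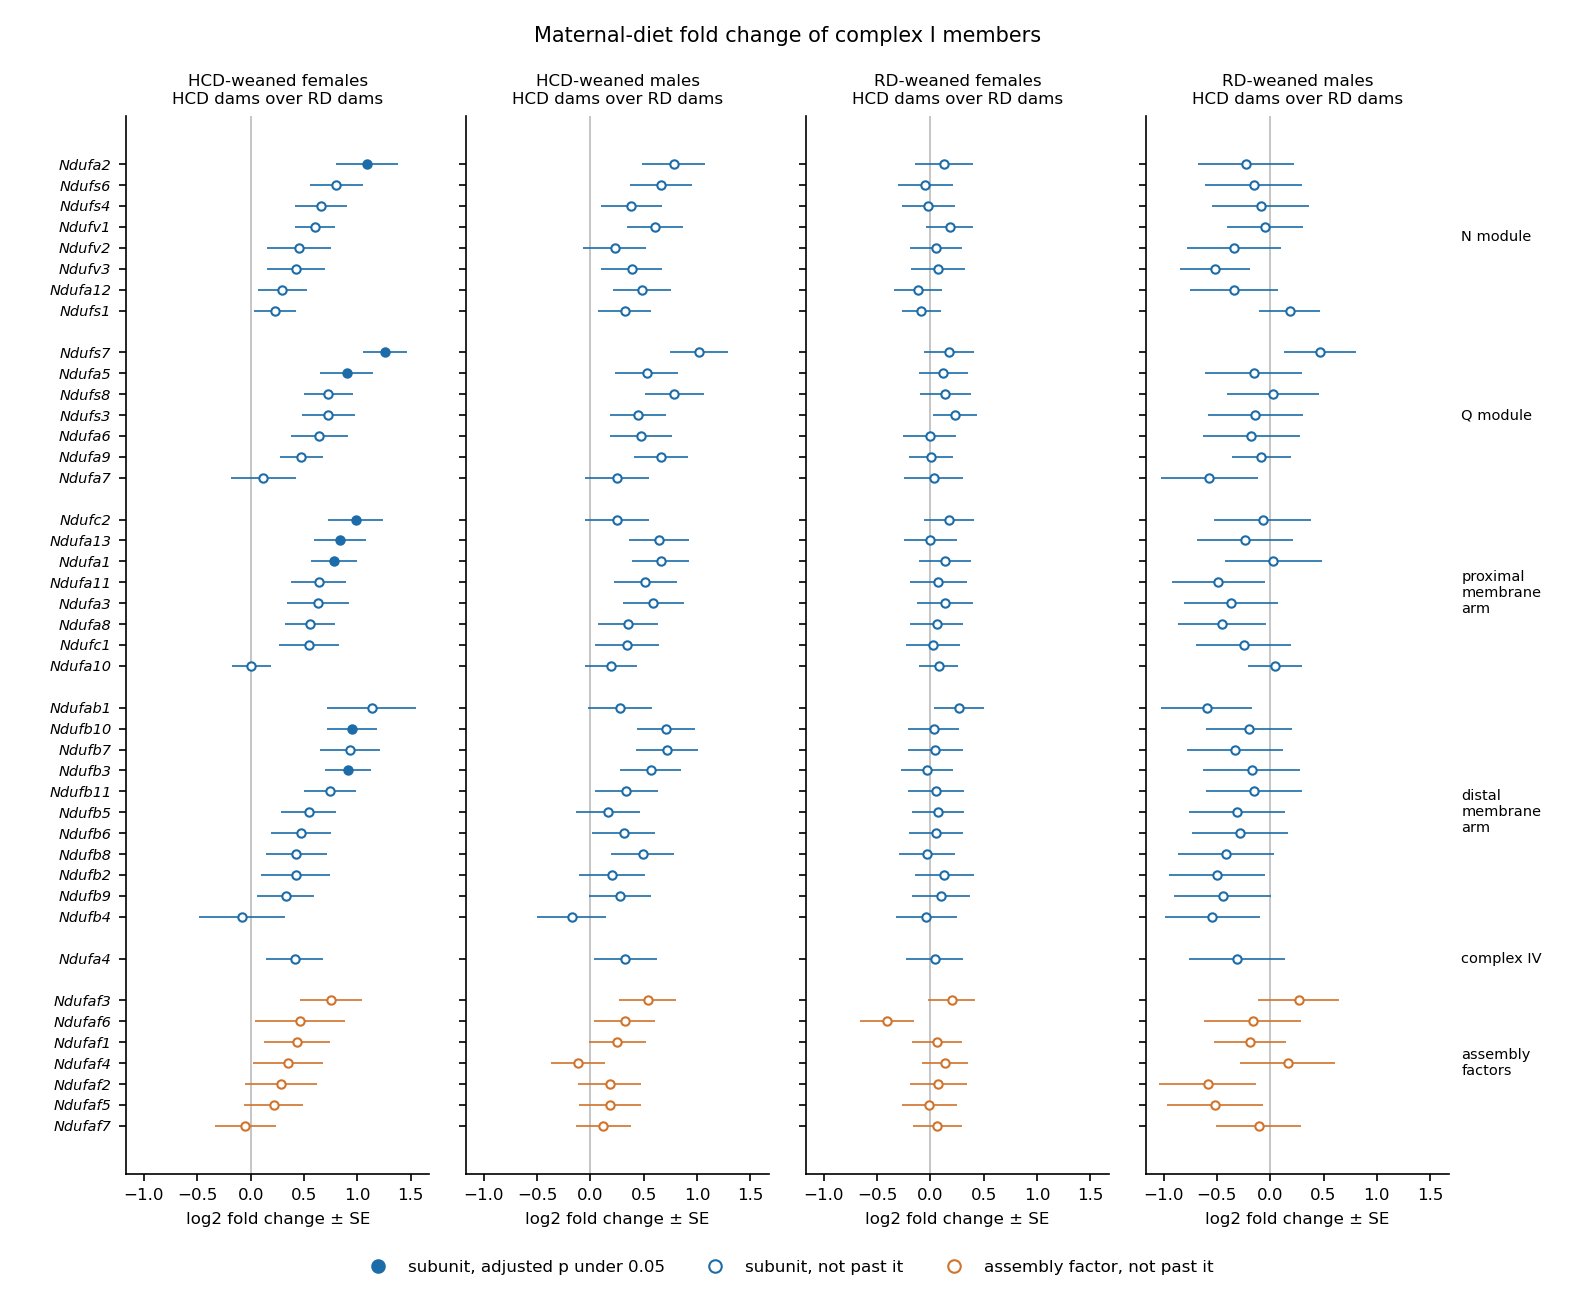
Log2 fold change (offspring of HCD dams over offspring of RD dams) of 42 of the 43 genes with its SE, in 4 panels by weaning diet and sex, grouped by module. Filled points pass 0.05 by the adjusted p of the authors' deposited tables, and open points do not or have none listed. The 8 filled points all lie in the panel of HCD-weaned females, led by Ndufs7 at 1.26.

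Promoter sequences of 38 of the 43 members (RefSeq, GRCm38.p6, 250 bases before and 50 after the start) were searched on both strands for letters bound by factors known to act on genes of respiratory subunits. These were AAGATGGCG for YY1, GCGCATGC for NRF1 and CCGGAAGT for ETS factors such as GABPA. The YY1 letters occurred in 5 of 38 members (13.2%), against 3.04% of the 11809 tested genes that have a window. All 5 are subunits, and Ndufs7 is one of them. The stretches around these matches are shown because they include Ndufs7 and share one arrangement, with the matched letters in capitals.
Ndufs7, chr10:80249464-80249490, plus strand: gccgaggccAAGATGGCGgcgctggcg
Ndufs6, chr13:73328433-73328458, minus strand: gtcaccggcAAGATGGCGgcggtgct
Ndufs4, chr13:114388045-114388068, minus strand: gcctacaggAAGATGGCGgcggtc
Ndufa9, chr6:126849098-126849124, minus strand: ttgtgggagAAGATGGCGgccgccgtc
Ndufc1, chr3:51408916-51408942, minus strand: ctgcggaacAAGATGGCGccgtccgta

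In all 5 the match lay on the gene's own strand and began 23 to 36 bases after the start. The ATG within it is an annotated start codon in GENCODE M21, so each stretch joins the end of the 5′ untranslated region to the first codons. Of the 359 tested genes with a YY1 match, 130 (36.2%) had a start codon in it. In HCD-weaned females the 5 members with the letters had a median log2 fold change of 0.66 and the 33 without them 0.56, per the authors' deposited table. In HCD-weaned males these medians were 0.66 with the letters and 0.35 without, in RD-weaned females 0.01 and 0.07, and in RD-weaned males -0.09 and -0.28, per the authors' deposited tables.

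The NRF1 letters occurred in 5 of 38 members (13.2%), against 5.43% of the tested genes. Their stretches are shown because they include both assembly factors with a match, Ndufaf4 with 2 separate ones. The letters overlap their own reverse complement, so a run of 10 capitals holds a match on each strand.
Ndufaf4, chr4:24897960-24897989, plus strand: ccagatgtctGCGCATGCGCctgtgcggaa
Ndufaf4, chr4:24898075-24898100, plus strand: ccctggtgtGCGCATGCtccgtgcgt
Ndufaf5, chr2:140170653-140170680, plus strand: gtcccgttgGCGCATGCGCctaatagaa
Ndufa11, chr17:56717692-56717721, plus strand: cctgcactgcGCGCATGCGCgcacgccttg
Ndufa6, chr15:82354357-82354384, minus strand: ccgcggtagaGCATGCGCattgcagagc
Ndufa8, chr2:36049339-36049356, minus strand: cgctggagacGCATGCGC

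In HCD-weaned females 0 of these 5 genes were called, beside 8 of all 43 members, and so few genes allow no reading of that count. Their log2 fold changes there ranged from 0.21 to 0.65, per the authors' deposited table. Their median was 0.56, and that of the 33 members without the NRF1 letters was 0.60. The ETS letters occurred in 1 of 38 members (2.63%), Ndufs3, against 7.74% of the tested genes. A match describes these windows only.

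In males weaned onto HCD, 0 of 43 members passed an adjusted p of 0.05, per the authors' deposited table, and 0.163% of the 15384 genes tested did. At an unadjusted p under 0.05 there were 11 of 36 subunits and 1 of 7 assembly factors, all positive, beside 8.14% of all genes tested. The median log2 fold change was 0.42 for subunits, with 35 of 36 positive, and 0.18 for assembly factors, with 6 of 7 positive. All genes tested had a median of -0.01, with 48.9% positive, per the authors' deposited table.

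Ndufs7 again had the largest value of the members, a log2 fold change of 1.02 ± 0.27 (95% interval 0.49 to 1.55, adjusted p = 0.085), and ranked 9th of the 15384 genes by Wald statistic, per the authors' deposited table. Next in HCD-weaned males were Ndufs8 at 0.79 ± 0.27 (adjusted p = 0.382) and Ndufa2 at 0.78 ± 0.29 (adjusted p = 0.456), per the authors' deposited table. Of the other core subunits, Ndufv1 had 0.60 ± 0.26, Ndufs3 0.45 ± 0.27, Ndufs1 0.32 ± 0.25 and Ndufv2 0.23 ± 0.30 on the log2 scale, per the authors' deposited table. All 7 core subunits were positive in both sexes of HCD-weaned offspring. The lowest members by Wald statistic were Ndufb4 at -0.18 ± 0.32, Ndufaf4 at -0.12 ± 0.26 and Ndufaf7 at 0.12 ± 0.26, per the authors' deposited table. Ndufaf3 was the highest of the 7 assembly factors, at 0.53 ± 0.27 (unadjusted p = 0.044), per the authors' deposited table. The remaining factors had smaller values, with Ndufaf6 at 0.32 ± 0.29, Ndufaf1 at 0.25 ± 0.27, Ndufaf5 at 0.18 ± 0.29 and Ndufaf2 at 0.18 ± 0.29, per the authors' deposited table. Ndufa4 had 0.33 ± 0.29 and Ndufaf8, under its older symbol 1810043H04Rik, 0.64 ± 0.29 (unadjusted p = 0.0267), per the authors' deposited table.

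In this same comparison 0.163% of all genes tested were called and 8.14% had an unadjusted p under 0.05. Of 13 hypothalamic markers (11 of them with an adjusted p), 5 fell in offspring of HCD dams and none was positive. Their median log2 fold change was -0.93, with 10 at an unadjusted p under 0.05, per the authors' deposited table. The 3 largest by Wald statistic were Oxt, the oxytocin precursor, at -2.27 ± 0.31 (adjusted p = 7.05e-09), Pmch, the precursor of melanin-concentrating hormone, at -1.93 ± 0.30 (adjusted p = 1.23e-06) and Hcrt, the orexin precursor, at -1.73 ± 0.32 (adjusted p = 0.000519), per the authors' deposited table. Among HCD-weaned females 3 of the 13 hypothalamic markers were positive, 0 of the 8 with an adjusted p passed and the median was -0.14. There, 2 had an unadjusted p under 0.05, beside 13.3% of all genes tested, per the authors' deposited table. Among RD-weaned females 12 of the 13 were negative (median -0.24, 0 called, 1 at an unadjusted p under 0.05). Among RD-weaned males 10 were negative (median -0.11, 0 called, 0 at an unadjusted p under 0.05), per the authors' deposited tables. The other marker lists of cell types and regions had 0 called in HCD-weaned males. Of 8 oligodendrocyte markers 7 were positive (median 0.22, 0 at an unadjusted p under 0.05). Of 8 thalamic markers 6 were positive (median 0.19, 1 at an unadjusted p under 0.05). Of 7 endothelial and mural markers 6 were negative and 1 positive (median -0.47, 0 called, 3 at an unadjusted p under 0.05). Of 10 telencephalic markers 8 were negative and 2 positive (median -0.38, 0 called, 2 at an unadjusted p under 0.05), per the authors' deposited table. The part of all these markers in the values of the complex I genes was not tested.

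The 43 fold changes in HCD-weaned females and in HCD-weaned males, which share no samples, had a Spearman correlation of 0.70, and those of all 14947 genes tested in both had one of 0.65. The points share transcript length and base composition. The difference between the sexes was tested for each gene as the female minus the male log2 fold change over the root of the summed squared SEs, against the normal distribution and with Benjamini-Hochberg adjustment over all genes. In HCD-weaned offspring 0 of 43 members differed (0% of all genes) and 0 had an unadjusted p under 0.05 (0.642% of all genes). The median difference of the subunits was 0.16. Ndufc2 had the largest statistic, with log2 fold changes of 0.99 in females and 0.25 in males and a difference of 0.74 (95% interval -0.04 to 1.51), computed from the authors' deposited tables. Ndufab1 had 1.13 in females and 0.27 in males, a difference of 0.86 (95% interval -0.14 to 1.86), computed from the authors' deposited tables. The interval for Ndufs7, 0.24 (-0.43 to 0.91), allows a difference in either direction.

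**Figure D3:**
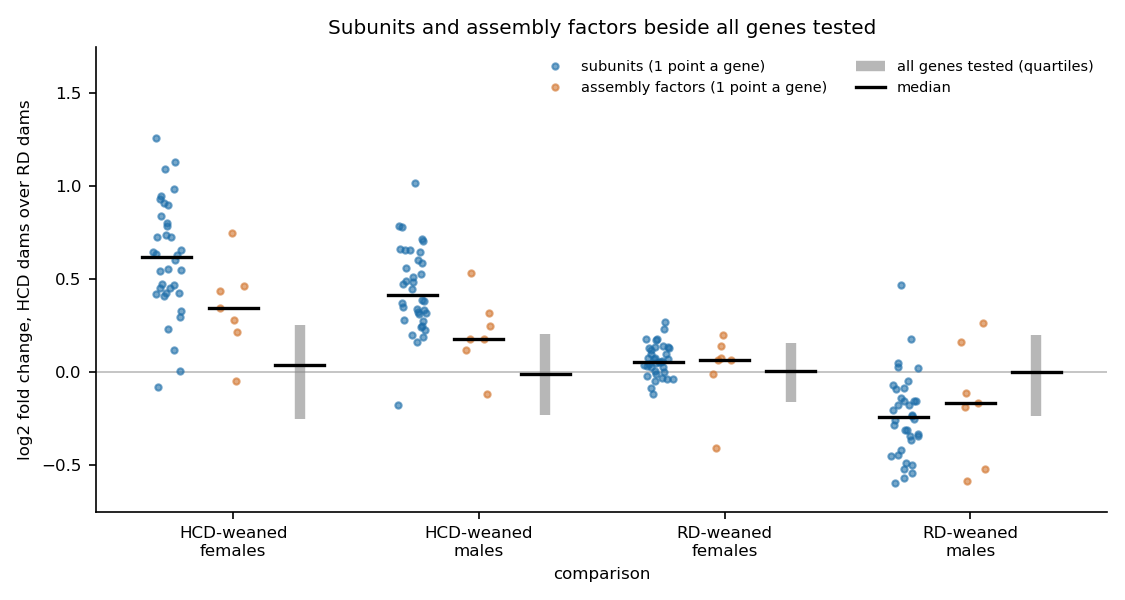
Log2 fold change (offspring of HCD dams over offspring of RD dams) in the 4 comparisons for 36 subunits, 7 assembly factors (1 point a gene, black lines at the medians) and all genes tested (bar from the lower to the upper quartile). The subunits' median is 0.62 in HCD-weaned females, 0.42 in HCD-weaned males, 0.06 in RD-weaned females and -0.24 in RD-weaned males.

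In females weaned onto RD the members lay near 0. None of the 42 with an adjusted p passed 0.05, per the authors' deposited table (0.346% of 15028 genes tested did), and 0 had an unadjusted p under 0.05 (6.16% of genes tested). The median log2 fold change was 0.06 for subunits, with 27 of 36 positive, 0.07 for assembly factors, with 5 of 7 positive, and 0.01 for all genes tested. The highest members by Wald statistic were Ndufab1 at 0.27 ± 0.23, Ndufs3 at 0.23 ± 0.20 and Ndufaf3 at 0.20 ± 0.22 on the log2 scale, per the authors' deposited table. The lowest were Ndufaf6 at -0.41 ± 0.25, Ndufa12, a subunit of the N module, at -0.12 ± 0.23 and Ndufs1 at -0.09 ± 0.18, per the authors' deposited table. Ndufs7 had 0.18 ± 0.24 (95% interval -0.29 to 0.64), per the authors' deposited table. The other assembly factors lay between -0.01 ± 0.26 for Ndufaf5 and 0.14 ± 0.22 for Ndufaf4, per the authors' deposited table. No p-value is listed for Ndufv2. In this comparison 8 of 8 thalamic markers were negative (median -0.77, 2 called) and 10 of 10 telencephalic markers positive (median 0.60, 0 called, 5 at an unadjusted p under 0.05), per the authors' deposited table. Of 8 microglia markers 8 were positive (median 0.33, 0 called, 2 at an unadjusted p under 0.05), per the authors' deposited table. Their part in the members' values was not tested.

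In males weaned onto RD most members were negative and none passed. Of the 40 members with an adjusted p, 0 were called, per the authors' deposited table (0.0851% of 12920 genes tested were), and 0 had an unadjusted p under 0.05 (4.3% of genes tested). The median log2 fold change was -0.24 for subunits, with 31 of 36 negative, and -0.16 for assembly factors, with 5 of 7 negative, against 0.00 for all genes tested. The core subunits had a median of -0.05 and the accessory subunits of -0.28, and all 11 distal arm subunits were negative, per the authors' deposited table. Ndufs7 had the highest value of the members, 0.47 ± 0.34 (95% interval -0.19 to 1.13), followed by Ndufaf3 at 0.27 ± 0.38, per the authors' deposited table. The lowest members by Wald statistic were Ndufv3, an accessory subunit of the N module, at -0.52 ± 0.33, Ndufab1 at -0.60 ± 0.42 and Ndufaf2 at -0.59 ± 0.45, per the authors' deposited table. No p-value is listed for Ndufab1, Ndufb6 and Ndufs1. The other assembly factors ranged from -0.52 ± 0.45 for Ndufaf5 to 0.16 ± 0.44 for Ndufaf4, per the authors' deposited table. In this comparison 8 of 8 thalamic markers were positive (median 0.41, 0 called, 2 at an unadjusted p under 0.05) and 8 of 10 telencephalic markers were positive (median 0.19, 0 called, 0 at an unadjusted p under 0.05), per the authors' deposited table. Their part in the members' values was not tested. Between the sexes of RD-weaned offspring, 0 of the 39 members tested differed (0.00791% of all genes) and 0 had an unadjusted p under 0.05 (3.05% of all genes). The median female minus male difference of the subunits was 0.28.

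The fold change for maternal diet was then compared between weaning diets, as HCD-weaned minus RD-weaned within a sex and with the same test. In females 0 of 42 members differed at an adjusted p under 0.05 (0.00685% of all genes). At an unadjusted p under 0.05 there were 11 of 35 subunits, all with a higher fold change in HCD-weaned females, and 0 of 7 assembly factors, beside 5% of all genes. The 7 factors are too few for a reading of their count. The median difference was 0.50 for subunits and 0.23 for assembly factors, against 0.02 for all genes tested. Ndufs7 had a log2 fold change of 1.26 in HCD-weaned and 0.18 in RD-weaned females, per the authors' deposited tables. The difference was 1.08 ± 0.32 (95% interval 0.47 to 1.70, unadjusted p = 0.000581, adjusted p = 0.300 over all genes, normal test on the authors' deposited values). Ndufb3 had 0.91 in HCD-weaned and -0.03 in RD-weaned females, a difference of 0.94 ± 0.33, computed from the authors' deposited tables. Ndufb10 had 0.95 in HCD-weaned and 0.03 in RD-weaned females, a difference of 0.92 ± 0.33, computed from the authors' deposited tables. The 11 include all 8 subunits called in HCD-weaned females, whose fold change there enters both the call and this difference.

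In males 0 of 40 members differed between weaning diets at an adjusted p under 0.05 (0.00775% of all genes). At an unadjusted p under 0.05 there were 2 of 33 subunits and 0 of 7 assembly factors, beside 3.84% of all genes. All 33 subunits tested had a higher fold change in HCD-weaned males, with a median difference of 0.70, and 6 of 7 assembly factors did, with a median of 0.44, against -0.01 for all genes tested. Ndufv3 had log2 fold changes of 0.39 in HCD-weaned and -0.52 in RD-weaned males, a difference of 0.91 ± 0.44 (95% interval 0.05 to 1.76), computed from the authors' deposited tables. Ndufa9, a Q module subunit, had 0.66 in HCD-weaned and -0.08 in RD-weaned males, a difference of 0.75 ± 0.37 (95% interval 0.01 to 1.48), computed from the authors' deposited tables. These values depend on the direction taken for both weaning diets, which for RD-weaned offspring rests on group order only. With the sign of the table for RD-weaned males turned, 25 of 33 subunits would have a positive difference, with a median of 0.22, and 5 of 7 assembly factors, with a median of 0.05. No member would be called, and 4 of all genes would. With that of RD-weaned females turned, the subunits' median would be 0.64 and 1 member, Ndufs7, would be called, among 186 of all genes, where 1 gene was called without the turn.

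**Figure D4:**
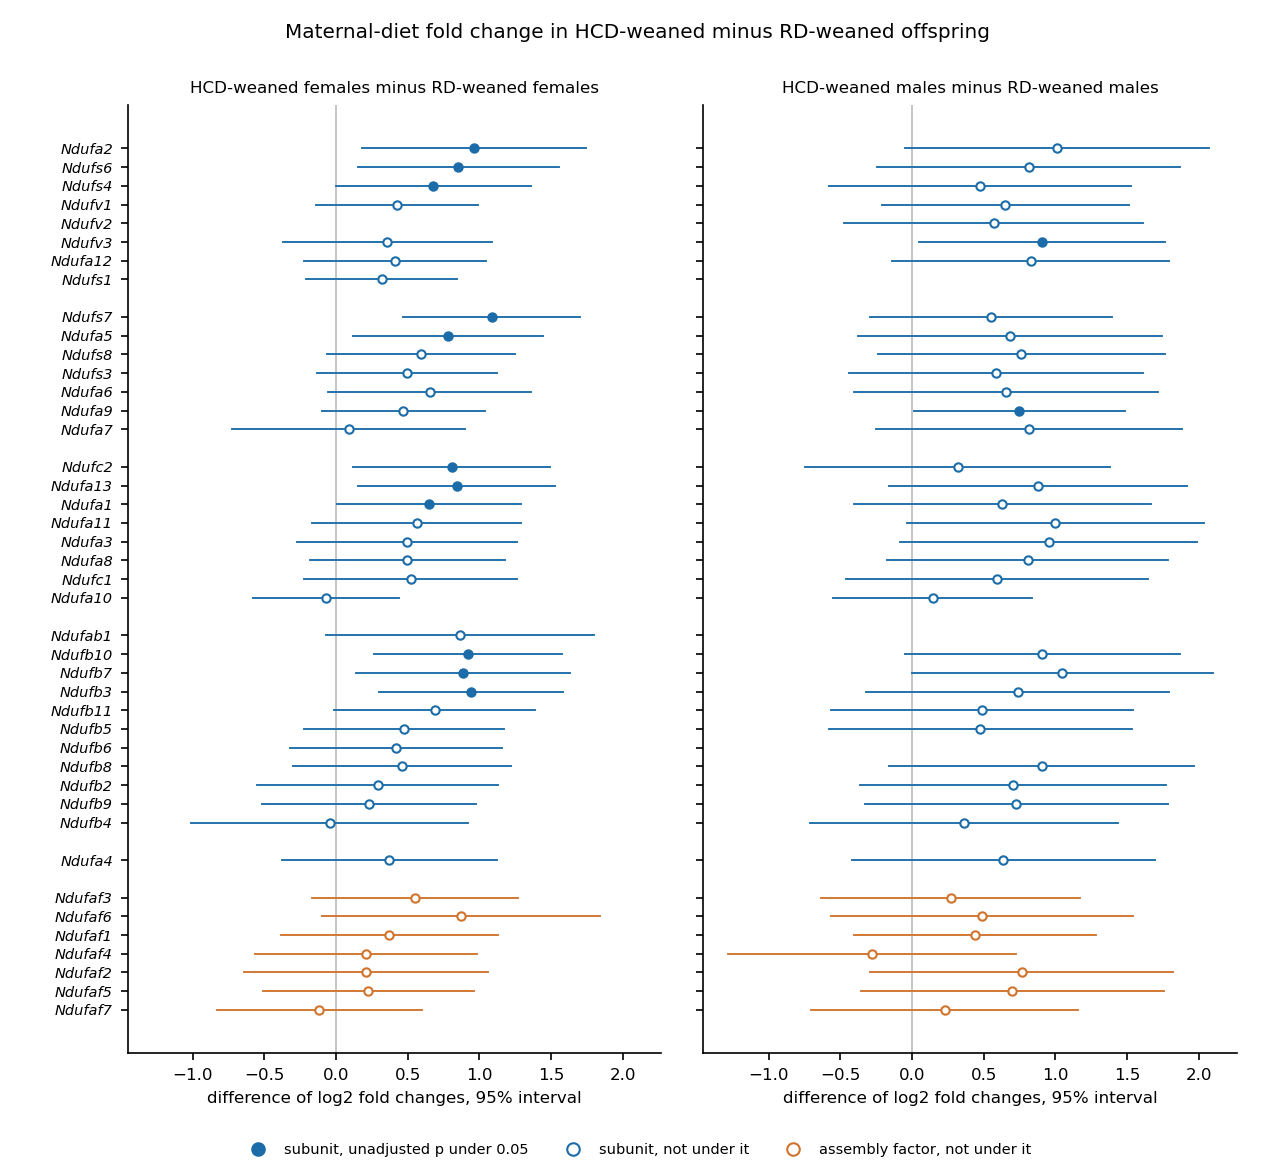
Difference of the log2 fold changes for maternal diet, HCD-weaned minus RD-weaned, with its 95% interval, for those of 42 genes that have a p-value, in females (left) and males (right). Filled points have an unadjusted p under 0.05, and none has an adjusted p under 0.05. In females 11 subunits are filled, with Ndufs7 at 1.08, and in males 2.

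Transcript length moved with these values. Across all genes the Wald statistic and the transcript length had a Spearman correlation of -0.45 in HCD-weaned females, -0.56 in HCD-weaned males, -0.22 in RD-weaned females and 0.10 in RD-weaned males, with points that share library and depth. Complex I transcripts are short, with a median of 940 bases for subunits and 1451 bases for assembly factors, against 2982 bases for all genes tested. Among genes of at most 800 bases in HCD-weaned females, the 15 subunits had a median log2 fold change of 0.65 and all 485 genes one of 0.24, per the authors' deposited table. In HCD-weaned males the 15 subunits had 0.51 and all 498 genes 0.27, per the authors' deposited table. Among genes of 801 to 1500 bases in HCD-weaned females, the 12 subunits had 0.64, the 4 assembly factors 0.45 and all 1738 genes 0.27, per the authors' deposited table. In RD-weaned offspring of at most 800 bases the medians were closer, at 0.05 for 15 subunits and 0.01 for all 488 genes in females, and -0.27 for 14 subunits and -0.22 for all 356 genes in males. With the length trend removed from the fold changes, the median of the subunits was 0.39 in HCD-weaned females and 0.25 in HCD-weaned males. That of the assembly factors was 0.21 in HCD-weaned females and turned to -0.030 in HCD-weaned males. With the trends against length and against GC content both removed, it was 0.26 in HCD-weaned females and 0.073 in HCD-weaned males. Among the 43 members the Wald statistic had a Spearman correlation with GC content of 0.35 in HCD-weaned females and 0.54 in HCD-weaned males. Its correlations with length among them were -0.31 and -0.32. The part of length and GC content in the members' values was not tested further.

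**Figure D5:**
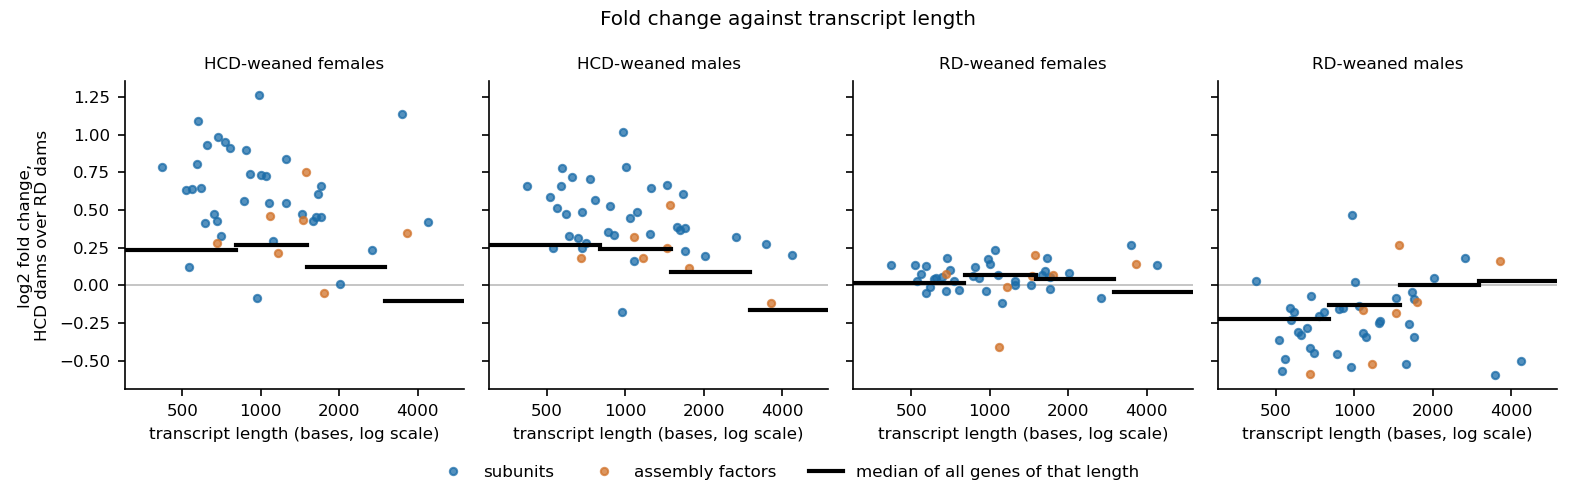
Log2 fold change (offspring of HCD dams over offspring of RD dams) of each gene against the length of its transcript in bases on a log scale, in the 4 comparisons. Black lines are the medians of all genes in 4 length classes. Among transcripts of at most 800 bases in HCD-weaned females, the subunits have a median of 0.65 and all genes one of 0.24.

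Other genes of oxidative phosphorylation were described beside complex I. Of 38 nuclear subunits of complexes II to V, 4 rose in HCD-weaned females and 0 fell, beside 1.52% of all genes called in either direction. Their median log2 fold change was 0.46 with 34 of 38 positive, per the authors' deposited table. At an unadjusted p under 0.05 there were 20 of the 38, 19 of them positive, beside 13.3% of all genes tested. The 3 largest by Wald statistic were Cox5a, a subunit of complex IV, at 1.28 ± 0.23 (adjusted p = 2.82e-05), Atp5d, of the central stalk of ATP synthase, at 1.11 ± 0.21 (adjusted p = 0.000141), and Cox6a1, of complex IV, at 1.00 ± 0.24 (adjusted p = 0.00998), per the authors' deposited table. In the other comparisons 0 of the 38 were called, per the authors' deposited tables. The median of the 38 was 0.40 in HCD-weaned males, with 7 at an unadjusted p under 0.05 beside 8.14% of all genes tested. It was 0.08 in RD-weaned females (0 under it, beside 6.16% of all genes tested). In RD-weaned males it was -0.25 (0 under it, beside 4.3%).

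The 9 further assembly factors of complex I outside the Ndufaf family, such as Acad9 and Timmdc1, had 0 called in any comparison, per the authors' deposited tables. Their medians were 0.06 in HCD-weaned females, 0.18 in HCD-weaned males, 0.03 in RD-weaned females and -0.08 in RD-weaned males, and 1 had an unadjusted p under 0.05, in RD-weaned males. Of 15 regulators of mitochondrial biogenesis 0 were called in any comparison, and in HCD-weaned females their median was -0.01 with 1 at an unadjusted p under 0.05, per the authors' deposited tables. Nrf1 had a log2 fold change of 0.29 ± 0.34 there, Yy1 -0.10 ± 0.32 and Ppargc1a, which encodes PGC-1 alpha, -0.20 ± 0.30, per the authors' deposited table. Of 11 markers of mitochondrial mass 1 rose in HCD-weaned females, Vdac1, the outer membrane channel, at 0.68 ± 0.18 (adjusted p = 0.0296), and the list had a median of 0.45, per the authors' deposited table. At an unadjusted p under 0.05 there were 5 of the 11. Over all genes tested there, 1.52% were called and 13.3% had an unadjusted p under 0.05. The list's median was 0.27 in HCD-weaned males, 0.08 in RD-weaned females and 0.21 in RD-weaned males, with 0 called in each.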

How the data were processed

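Poly(A) RNA of 25 hypothalamus samples was sequenced with a stranded kit, per the labels' protocols. DESeq, with no version, and the build mm10 are named per the submitters' processing notes; for aligner, counter and annotation, not given in the sources used here. The authors' 4 tables of comparisons were used, of 12 deposited files. By the file headers, the authors give a mean normalized count (a non-negative signal), a log2 fold change with its standard error, a Wald statistic (a score), a p-value and an adjusted p-value. In the deposited tables the Wald statistic equalled the ratio of fold change to standard error, and the adjusted p-value the Benjamini-Hochberg value over the genes that carry one, to rounding. A further 48 columns of single libraries in 8 files were left unused, since their names match no label. Depth per sample, the planned count test and fits without a sample were therefore not possible.

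Members, lists and tests were chosen with earlier results of these data known. Calls use an adjusted p under 0.05. Named members are those called, the 3 highest and 3 lowest by Wald statistic in each table, the core subunits, the assembly factors, Ndufa4 and those beside the minimum mean; of other lists, at most 3 called genes a list. Comparisons were subtracted and divided by the root of the summed squared standard errors (normal test). The deposited log2 fold changes look shrunken toward 0, which can make this test conservative, and shrinkage may differ between tables. Simulated data checked the computation only, because the planted differences were far larger than those of the members. Intervals are 95% (1.96 standard errors). CPM is the mean normalized count over its sum, computed here, and was divided by the length of the APPRIS principal transcript (GENCODE M21, GRCm38). Length trends were removed with a spline of 5 degrees of freedom (patsy 1.0.2). Near-identical copies were sought with BLAST+ 2.17.0 (at least 95% identity over 50%): Ndufb11, Ndufs3 and Ndufs6 have one, so their counts are less certain. Motifs were searched in RefSeq promoter sequences (GRCm38.p6). Protein sequences were not compared here. A member is not reported by name here and not drawn in plots with gene names; counts and medians include it. Python 3.11.15 and SciPy 1.17.1 were used.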

Additional observations from a re-analysis of the deposited data

How the results depend on the processing

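Each result was recomputed with an adjusted p under 0.10, p-values adjusted over means of at least 10, of at least 100 or with no filter, Wald statistics scaled by their robust spread, centring on the median fold change, and trends against transcript length, or length and GC content, removed. The count of members called in HCD-weaned females, 8, was 13 at an adjusted p under 0.10, 1 with the robust spread, 1 with the length trend removed and 1 with both trends removed; Ndufs7 is the 1 in each. All genes called in that table were 229 as deposited and 56, 64 and 49 under these last settings; the cause was not tested. The robust spread was 1.12 in that table. The count was 7 without a filter or with centring, 8 over means of at least 10 and 9 over means of at least 100. In HCD-weaned males 1 member, Ndufs7, was called at an adjusted p under 0.10 and 0 otherwise, and in RD-weaned offspring 0 under every setting. The median of the assembly factors in HCD-weaned males turned to -0.030 with the length trend removed; every other median kept its sign and moved by less than the members' median SE. For differences between comparisons, the changed adjustment sets and the removal of both trends were added after seeing the data. Under these, the planned settings and the turned sign of the RD-weaned table, 0 members differed, except 1, Ndufs7, between HCD-weaned and RD-weaned females with the sign turned. No paired analysis was possible because the library columns carry no replicate number that matches a label. For the same reason count tests with edgeR or DESeq2 and leaving out a replicate were not run, so whether 1 library decides a value, and what depth limits, was not tested.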

Other observations

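Ribosomal protein genes, which are short like those of complex I, were the other large families measured beside it. In the authors' deposited table for HCD-weaned females the 74 mitochondrial ribosomal protein genes had a median log2 fold change of 0.28 with 1 called. The 75 cytosolic ones had 0.25 with 2 called. At an unadjusted p under 0.05 there were 9 of the mitochondrial set and 20 of the cytosolic set. Over all genes tested 1.52% were called and 13.3% had an unadjusted p under 0.05. The subunits of complex I had a median of 0.62 in that comparison. In HCD-weaned males the median was 0.28 for the mitochondrial set (0 called, 4 at an unadjusted p under 0.05). For the cytosolic set it was 0.32 (1 called, 14 at an unadjusted p under 0.05, all positive), in the authors' deposited table. The subunits had 0.42 in those males. Over all genes tested 0.163% were called and 8.14% had an unadjusted p under 0.05. In RD-weaned males both sets were negative, at -0.24 and -0.43, beside -0.24 for the subunits, and in RD-weaned females they were 0.04 and -0.04, beside 0.06, in the authors' deposited tables.

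Ndufs7 was the highest member by Wald statistic in HCD-weaned females, HCD-weaned males and RD-weaned males, and the 4 comparisons share no samples. The rank in RD-weaned males rests on the direction taken for that table, and with its sign turned Ndufs7 would be the lowest member. In RD-weaned females 5 members ranked above it. Its interval excluded 0 in both comparisons of HCD-weaned offspring and in neither comparison of RD-weaned offspring.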
